A study of Caenorhabditis elegans with 24 samples.

Results

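The 8 Caenorhabditis elegans genes described here encode the proteins that find helix-distorting DNA damage and cut it out at the start of nucleotide excision repair: xpc-1, rad-23, ddb-1, csa-1, csb-1, ercc-1, xpf-1 and xpg-1. They were taken as the probe sets annotated to these gene names. Each of the 8 had 1 probe set that names it alone, out of 17118 genes so represented on the array. Their identifiers are 187080_at for xpc-1, 191142_s_at for rad-23, 173732_s_at for ddb-1, 178627_s_at for csa-1, 175309_at for csb-1, 191454_at for ercc-1, 191938_at for xpf-1 and 190056_at for xpg-1. An ID ending in _s_at marks a probe set designed to match several transcripts, although the annotation names 1 gene for each of these 3. The RefSeq gene table (assembly WBcel235) places xpc-1 and ddb-1 on chromosome IV, rad-23, csa-1 and xpf-1 on II, ercc-1 and xpg-1 on I, and csb-1 on X. By mean level the probe sets lay between percentile 51.1 (csa-1) and 92.2 (rad-23) of all probe sets.

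Nucleotide excision repair removes the bulky lesions that ultraviolet light leaves in DNA. In the global branch XPC with its partner RAD23, helped by the DDB complex, finds lesions anywhere in the genome, and in the transcription-coupled branch CSB and CSA act where RNA polymerase has stalled. Both branches meet at XPA and the TFIIH complex, after which XPF-ERCC1 cuts the damaged strand on the 5′ side and XPG on the 3′ side. In C. elegans the global branch is known mainly from the germ line and the transcription-coupled branch mainly from somatic cells, and XPF-1 also cuts recombination intermediates in meiosis.

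The study exposed young adults of 3 strains to ultraviolet C light and measured whole-animal RNA on single-channel Affymetrix arrays, in 2007 and again in 2008, with 2 arrays per strain, treatment and year (24 in all, 4 per group). The 6 groups are glp-1 with and without UVC, xpa-1 with and without UVC, and N2 with and without UVC. The glp-1 strain (JK1107) carries a point mutation in a Notch-type receptor that keeps germ line stem cells dividing, xpa-1 (RB864, outcrossed 3 times) carries a deletion in the gene of the damage-verifying protein XPA, and N2 is the wild type. All animals were raised at 25 °C and were 24 h past the L4 larval stage with a vulval crescent. Exposed animals received 50 J/m2 of UVC (emission peak 254 nm) without food and were frozen 3 h later, and control animals had no exposure. Each array represents many pooled animals. Labelled RNA was made with a TargetAmp kit from 500 pg of total RNA in 2007 and with an Affymetrix two-cycle kit from 100 ng in 2008, so year and kit cannot be told apart.

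The deposited values are linear intensities, some below 0. Below, a level is log2(intensity + 32) after quantile normalization over all 24 arrays, with 5.00 as the lowest possible value, and a difference is a difference of such levels, which understates the change of dim probe sets. Differences were tested with limma over all 22548 probe sets with a term for year, and "passed the test" means a Benjamini-Hochberg adjusted p under 0.05. The labels do not state whether the 2 replicates of a year came from separate cultures, and the p-values reflect the spread among these arrays alone, which may be technical. The 2007 arrays were dimmer and less alike than those of 2008: array medians of deposited intensity were 4.24 to 8.42 in 2007 and 68.9 to 191 in 2008, the Spearman correlation between arrays of a group was 0.757 to 0.882 and 0.953 to 0.977, and the median standard error of a 2 against 2 difference within the year was 0.51 and 0.19. In the strains' own check, the xpa-1 transcript lay at 5.00 to 6.59 on xpa-1 arrays, against 8.92 to 10.07 on N2 arrays. The glp-1 transcript lay at 5.00 to 7.39 on glp-1 arrays, against 10.40 to 11.15 on all others. A point mutation does not remove a probe's target, so the second value does not check the allele.

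The first comparison asked whether UVC changed the transcripts of the genes that begin its repair. None of the 8 passed the test in any strain at 3 h. In glp-1, 0 of 8 passed, where 0% of all probe sets did (limma; 1637 probe sets and 1 of the 8 had an unadjusted p under 0.05). In xpa-1, 0 of 8 passed, where 0.031% of probe sets did (1307 and 0 unadjusted). In N2, 0 of 8 passed, where 0% did (611 and 0 unadjusted). Averaged over the 3 strains, 0 of 8 passed, where 0.031% did (1416 and 0 unadjusted). Their median UV difference averaged over strains was 0.08, against -9.40e-04 for all genes.

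**Figure D1:**
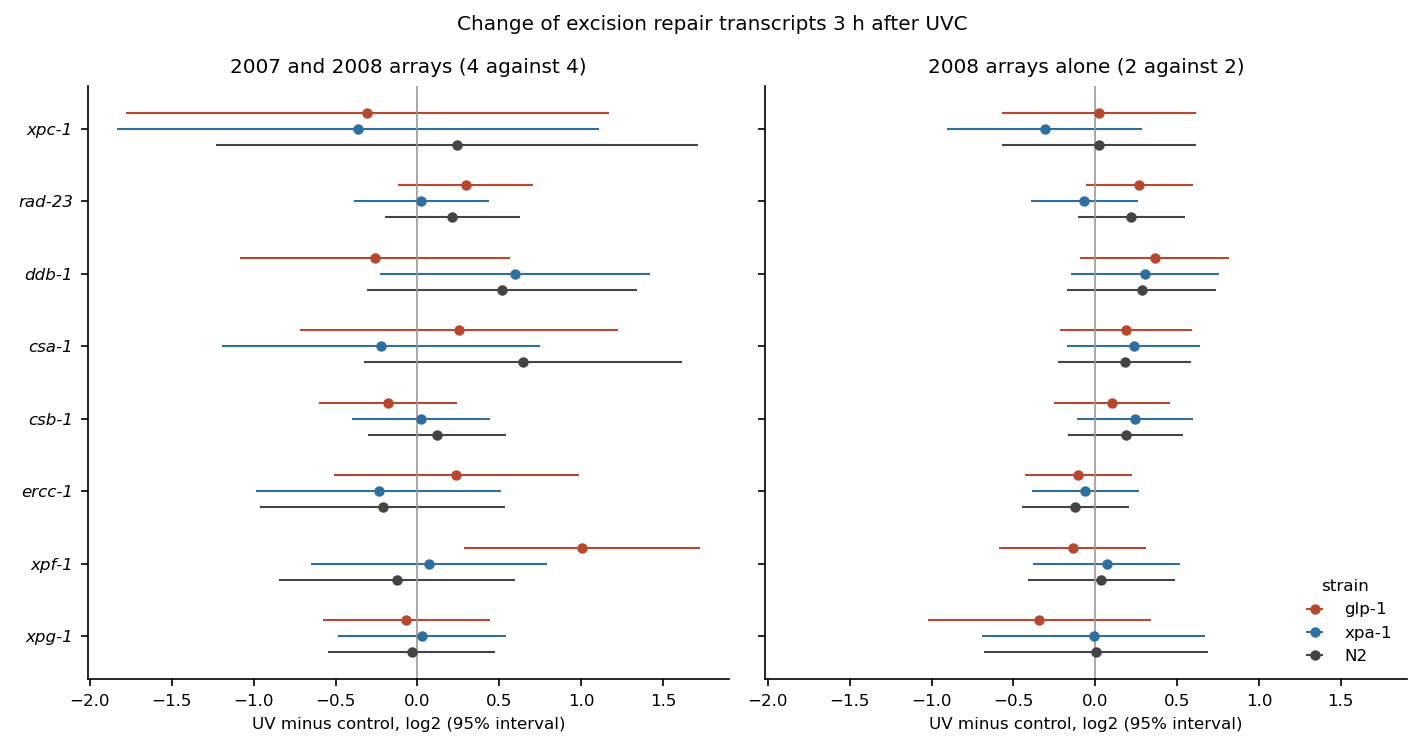
UV minus control differences (log2, points with 95% confidence intervals) of the 8 genes in glp-1, xpa-1 and N2, from all arrays on the left (4 against 4) and from the 2008 arrays alone on the right (2 against 2). In 2008 every interval spans 0; with both years, xpf-1 in glp-1 is the exception at 1.0.

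Over the 8 genes together, the outermost limits were tighter with the 2008 arrays alone than with both years. This did not hold for xpg-1. Its SE for a difference of 2 groups was 0.24 with both years and 0.29 in 2008 alone. In that year alone the UV differences of the 8 genes ran between -0.34 and 0.36 in glp-1, -0.31 and 0.30 in xpa-1 and -0.12 and 0.28 in N2. The highest upper confidence limit over the 8 genes was a 1.76-fold rise in glp-1, 1.69-fold in xpa-1 and 1.67-fold in N2, each for ddb-1. The lowest limit was a fall to 0.49-fold in glp-1 (xpg-1), 0.53-fold in xpa-1 (xpc-1) and 0.62-fold in N2 (xpg-1). Among all probe sets 0.705% passed in glp-1, 0.0843% in xpa-1 and 0% in N2 with the 2008 arrays alone, and 0 of the 8 genes did in any strain.

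ddb-1, the adaptor subunit that links damage-binding proteins to the CUL-4 ubiquitin ligase, had the steadiest direction in 2008. Its levels that year were 8.26 and 8.14 on UV arrays of glp-1, against 8.17 and 7.51 on controls. In xpa-1 they were 9.17 and 8.97 on UV arrays, against 8.80 and 8.73 on controls. In N2 both UV arrays stood at 9.19, against 8.93 and 8.89 on controls. All 6 UV arrays of 2008 thus lay above the mean of their own controls, and in xpa-1 and N2 the arrays of the 2 treatments did not overlap. For csa-1 and csb-1, 5 of 6 did so in that year. The shares of all probe sets with such patterns were not counted. The average difference in 2008 was 0.32 (SE 0.11; 95% interval 0.05 to 0.58), a 1.25-fold rise that did not pass (limma adjusted p = 0.24, unadjusted 0.025), where 0.976% of probe sets passed. In 2007, 4 of 6 UV arrays lay above their controls. The 2 below were those of glp-1, at 6.08 and 5.41, against 6.76 and 6.48 on controls. Over both years the average was 0.29 (SE 0.23; 95% interval -0.19 to 0.76).

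xpf-1, the catalytic subunit of the 5′ nuclease, had the lowest unadjusted p of the 8 genes in a UV comparison, in glp-1. Its level on glp-1 arrays of 2007 was 6.62 and 7.68 after UV, against 5.00 and 5.00 on controls. On glp-1 arrays of 2008 it was 6.93 and 6.79 after UV, against 7.32 and 6.67 on controls. The 2 years thus went opposite ways: the UV difference was 2.15 in 2007 (limma adjusted p = 0.087) and -0.14 in 2008 (adjusted p = 0.90). Both 2007 controls had deposited intensities below 0 (-4.24 and -2.85), so their level is the lowest possible one. Over both years the difference was 1.0 (SE 0.34) and did not pass (limma adjusted p = 0.56). On the same 2007 glp-1 arrays, the summed level of 14 germ line markers was 2713 and 2711 normalized intensity units after UV, against 1575 and 1289 on controls, and its part in the xpf-1 value was not tested.

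For the other 6 genes the UV intervals spanned 0 in each strain and in the average. rad-23, the XPC partner and ubiquitin receptor, averaged 0.18 (95% interval -0.06 to 0.42). csa-1 and csb-1, the transcription-coupled factors, averaged 0.22 (-0.34 to 0.79) and -0.01 (-0.26 to 0.23). ercc-1, the non-catalytic partner of XPF-1, averaged -0.07 (-0.50 to 0.36), and xpg-1, the 3′ nuclease, -0.02 (-0.32 to 0.27). xpc-1 averaged -0.14 with the widest interval, -0.99 to 0.71. The intervals of csb-1 and xpg-1 thus ended at 0.23 and 0.27 on the log2 scale, and that of xpc-1 at 0.71. These limits hold for the scaling and offset used. Over the alternative runs the average itself reached 0.235 for csb-1 and 0.227 for xpg-1.

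The second comparison asked whether losing xpa-1 or the germ line altered these UV differences. For xpa-1 minus N2, 0 of 8 genes passed the test of the difference, where 0% of probe sets did (450 and 0 of the 8 at an unadjusted p under 0.05). For glp-1 minus N2, 0 of 8 passed, where 0% did (934 and 1 unadjusted, xpf-1 at 1.13, SE 0.49, limma adjusted p = 0.995). With the 2008 arrays alone these differences lay between -0.33 and 0.06 for xpa-1 and between -0.34 and 0.08 for glp-1, with 95% intervals reaching from -1.17 to 0.95 and from -1.31 to 0.84 at their widest.

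The third comparison set xpa-1 animals against N2 animals of the same treatment. No transcript of the 8 differed detectably. Among controls 0 of 8 passed, where 0.00887% of probe sets did (842 and 0 of the 8 at an unadjusted p under 0.05), and after UV 0 of 8 passed, where 0.0133% did (683 and 0 unadjusted). The differences ran from -0.39 (xpf-1) to 0.35 (csa-1) among controls and from -0.52 (csa-1) to 0.10 (ercc-1) after UV. The nearest to the threshold in 2008 was rad-23 among controls, at 11.28 and 11.49 in xpa-1, against 11.06 and 11.06 in N2. These arrays did not overlap, but the difference of 0.33 (SE 0.14) did not pass (limma adjusted p = 0.88), and after UV in the same year it was 0.04. Of the 24 other excision repair genes measured, xpa-1 itself was the only one to pass in this comparison, with differences of -3.84 among controls and -4.41 after UV.

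The fourth comparison set glp-1 animals, which have little germ line, against N2, and here most of the 8 transcripts were lower. Among controls 5 of 8 fell, where 18% of all probe sets did: xpf-1, ercc-1, xpg-1, ddb-1 and rad-23. After UV, on other arrays, 6 of 8 fell, where 19.5% did: the same 5 and csb-1. None of the 8 rose in either. The median difference of the 8 was -1.04 among controls and -1.43 after UV, against 0.07 and 0.15 for all genes. In whole animals, fewer cells that carry a transcript and less of it per cell cannot be told apart. Against xpa-1 controls, which share the glp-1 arrays with the N2 comparison, 6 of 8 were lower, where 17.6% were, with csb-1 (-0.54, limma adjusted p = 0.0406) and ddb-1 (-1.06, adjusted p = 0.0401) nearest the threshold. ddb-1 lost that call without any 1 of 6 arrays (all but the first of 2007 in xpa-1 and the first of 2008 in glp-1; -0.84 to -1.09, adjusted p = 0.0620 to 0.135). csb-1 lost it without any 1 of 6 arrays (all but the first of 2008 in xpa-1 and the second of 2007 in glp-1; -0.38 to -0.55, adjusted p = 0.0652 to 0.162).

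**Figure D2:**
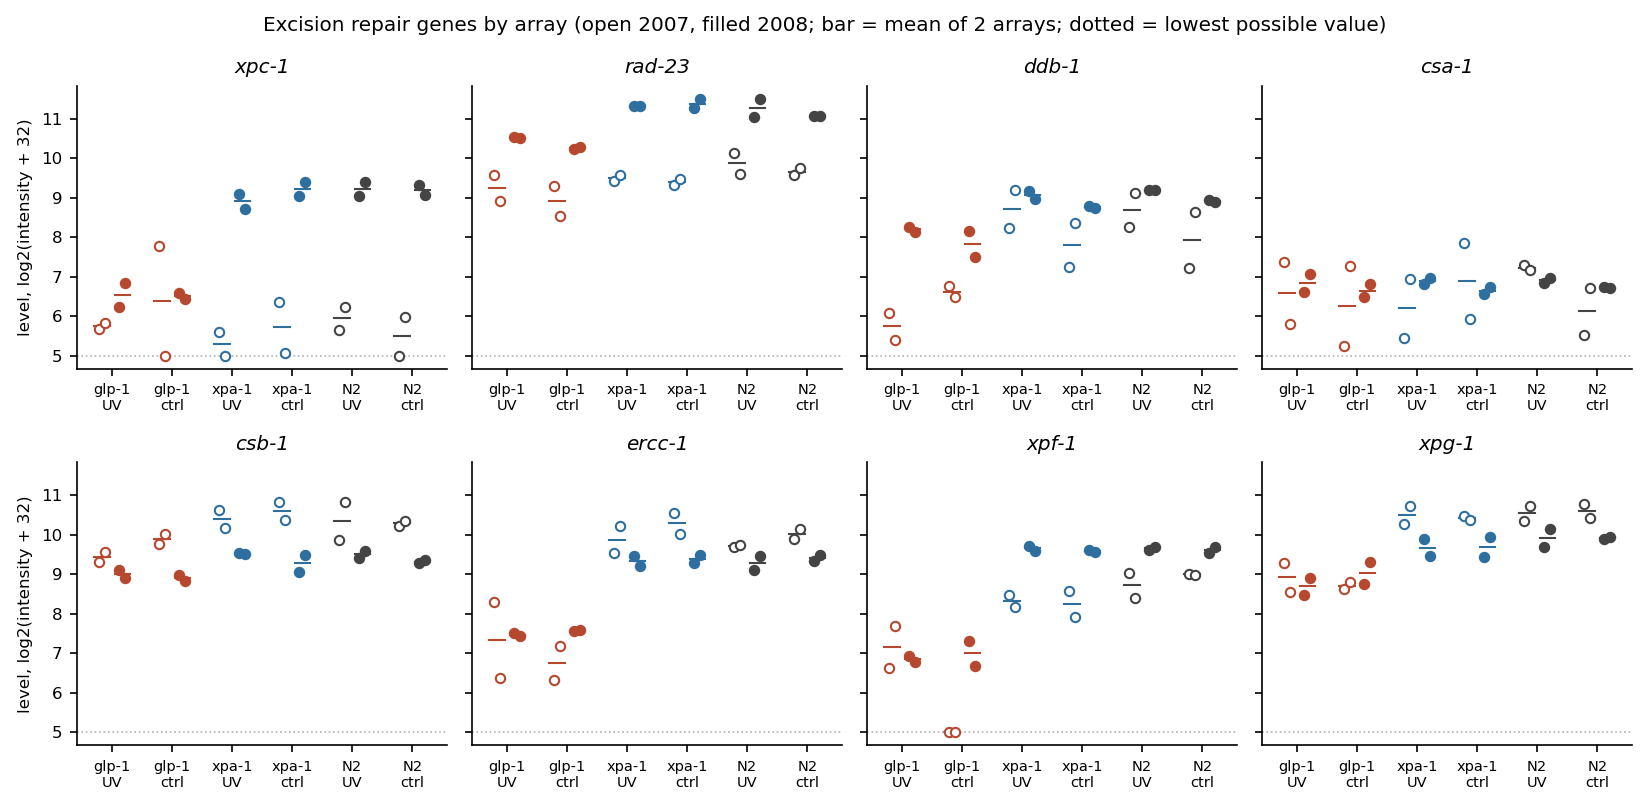
Level of each of the 8 genes (y axis, log2(intensity + 32) after quantile normalization) on all 24 arrays by group; open points are 2007, filled points 2008, bars the mean of 2 arrays and the dotted line the lowest possible value of 5.00. The glp-1 arrays lie below the xpa-1 and N2 arrays of the same year without overlap for ercc-1, xpf-1, xpg-1 and ddb-1. Those of csa-1 and csb-1 overlap in both years and those of xpc-1 and rad-23 in 2007. The share of all probe sets without overlap was not counted.

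The incision nucleases had the largest differences that passed among controls with both years. The third of them, xpg-1 (-1.39, SE 0.24), lay close to ddb-1 (-1.19, SE 0.39), and after UV ddb-1 (-1.97) fell more than xpg-1 (-1.42). For xpf-1, the 4 glp-1 controls stood at 5.00, 5.00, 7.32 and 6.67 (2007 first), against 9.01, 8.99, 9.54 and 9.70 in N2 controls. No array of the 2 groups overlapped. The difference was -3.31 (SE 0.34; limma adjusted p = 1.92e-07) among controls and -2.18 (SE 0.34; adjusted p = 3.29e-05) after UV, lower on 4 of 4 arrays in each. Since both 2007 glp-1 controls are at the lowest possible level, the size among controls rests on the offset, and it ran between -5.94 and -1.98 over the alternatives. In deposited intensities of 2008, xpf-1 read 83.5 to 134 on the 4 glp-1 arrays, against 955 to 2204 on the 8 xpa-1 and N2 arrays, a ratio of means of 0.064. These intensities are from before the normalization used here. In them csa-1, which did not pass in 2008, had a ratio of 0.523.

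ercc-1, whose protein forms the 5′ nuclease with XPF-1, stood at 6.33, 7.18, 7.55 and 7.58 in glp-1 controls, against 9.88, 10.15, 9.32 and 9.49 in N2 controls. The difference was -2.55 (SE 0.36; limma adjusted p = 8.56e-06), and after UV it was -2.10 (SE 0.36; adjusted p = 7.62e-05). The 2008 intensities were 162 to 188 on glp-1 arrays, against 911 to 1701 on xpa-1 and N2 arrays. Both subunits of this nuclease were thus lower in glp-1, in either treatment and in each year.

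xpg-1 stood at 8.63, 8.80, 8.76 and 9.31 in glp-1 controls, against 10.79, 10.43, 9.88 and 9.94 in N2 controls. The difference was -1.39 (SE 0.24; limma adjusted p = 1.12e-04) among controls and -1.42 (SE 0.24; adjusted p = 8.45e-05) after UV. On the 2008 arrays, where all 3 nuclease genes had signal, xpg-1 was 1.84 times lower among controls and 2.33 times lower after UV, xpf-1 6.15 and 6.93 times and ercc-1 3.58 and 3.53 times. The order depended on the scaling: with values as deposited over both years, the differences after UV were -2.50 for xpg-1, -2.50 for xpf-1 and -2.51 for ercc-1. Whether the 3 genes differ in the size of the fall was not tested.

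Among the recognition genes, rad-23 and ddb-1 passed with both years. rad-23 stood at 9.30, 8.54, 10.22 and 10.27 in glp-1 controls, against 9.57, 9.75, 11.06 and 11.06 in N2 controls, which differ by year more than by strain but do not overlap within a year. Its difference was -0.78 (SE 0.20; limma adjusted p = 0.0036) among controls and -0.70 (SE 0.20; adjusted p = 0.0078) after UV. ddb-1 stood at 6.76, 6.48, 8.17 and 7.51 in glp-1 controls, against 7.23, 8.64, 8.93 and 8.89 in N2 controls. Its difference was -1.19 (SE 0.39; limma adjusted p = 0.021) among controls and -1.97 (SE 0.39; adjusted p = 4.11e-04) after UV. Without the second N2 control of 2007 the ddb-1 difference among controls was -0.93 (adjusted p = 0.092), without the second glp-1 control of 2007 it was -1.12 (adjusted p = 0.053) and without the second glp-1 control of 2008 it was -1.10 (adjusted p = 0.058).

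xpc-1, the damage sensor of the global branch, gave different pictures in the 2 years. In 2008 it read 56.1, 107, 69.4 and 65.8 in deposited intensity on the glp-1 arrays (UV first), against 858 to 1497 on the 8 xpa-1 and N2 arrays, a ratio of means of 0.062. In normalized levels that was 6.60 and 6.43 in glp-1 controls, against 9.32 and 9.07 in N2 controls, and 6.23 and 6.84 in glp-1 after UV, against 9.05 and 9.39 in N2 after UV. The difference in 2008 alone was -2.68 (SE 0.25; limma adjusted p = 1.30e-04) among controls and -2.68 (SE 0.25; adjusted p = 1.20e-04) after UV, 6.41 times lower in each.

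In 2007 the xpc-1 probe set gave almost no signal in any group. Its deposited intensity was -5.92 to 9.73 on the 4 glp-1 arrays, against -5.50 to 5.52 on the 8 xpa-1 and N2 arrays, and 4 of these 12 values were at or below 0. Within its array the probe set ranked at percentile 6.08 to 46.8 on the xpa-1 and N2 arrays of 2007 and at 74.5 to 81.8 on those of 2008. With both years the glp-1 minus N2 difference was -0.89 (SE 0.70; limma adjusted p = 0.37) among controls and -1.44 (SE 0.70; adjusted p = 0.12) after UV, and neither passed. The test of the strain difference in 2008 against that in 2007 gave -3.58 (SE 0.93; limma adjusted p = 0.0795) for xpc-1, and 0 of 8 genes passed it, where 1.33% of probe sets did (3013 and 4 of the 8 at an unadjusted p under 0.05). Without the first glp-1 control of 2007, which stood at 7.78 against 5.00 on the second, the xpc-1 difference over both years was -1.80 (adjusted p = 0.016). Without the second glp-1 control of 2007 the year test gave -4.98 (adjusted p = 0.0017).

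With the scaling used, the transcription-coupled genes had the smallest differences among controls. For csb-1 this place depended on the scaling. With values as deposited csb-1 and rad-23 were both at -1.22, and with median centring they were at -0.81 and -0.82. In deposited intensities of 2008, the ratio of glp-1 means to the others was 0.364 for csb-1 and 0.429 for rad-23. csb-1, the ATPase that marks a stalled polymerase, stood at 9.76, 10.01, 8.97 and 8.83 in glp-1 controls, against 10.23, 10.34, 9.29 and 9.35 in N2 controls. It was lower on 4 of 4 arrays, but the difference of -0.41 (SE 0.20) did not pass among controls (limma adjusted p = 0.13). After UV it was -0.70 (SE 0.20; adjusted p = 0.0082) and passed. csa-1, which in humans encodes the substrate receptor of the ubiquitin ligase recruited by CSB, had a difference of 0.03 (SE 0.46) among controls and -0.36 (SE 0.46) after UV (limma adjusted p = 0.99 and 0.59). In 2008, where csa-1 was measured best, the difference was -0.08 among controls (95% interval -0.48 to 0.33) and -0.07 after UV (-0.47 to 0.34). In deposited intensity of 2008, csa-1 read 62.1 to 130 on the 4 glp-1 arrays, against 101 to 247 on the 8 xpa-1 and N2 arrays, which overlap, with a ratio of means of 0.523. With values as deposited over both years its difference after UV was -0.55 and passed (adjusted p = 0.0443), so the csa-1 result depends on the scaling.

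**Figure D3:**
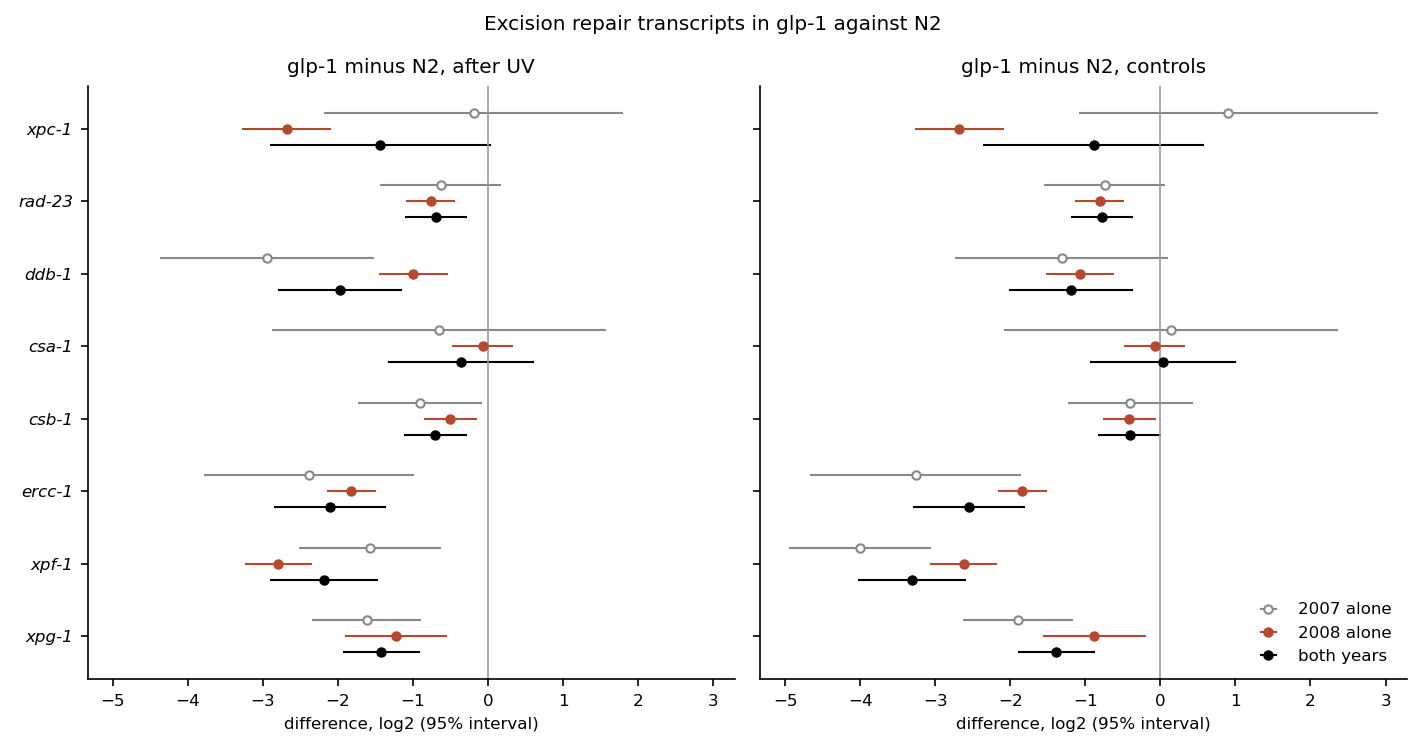
glp-1 minus N2 difference of each gene (log2, points with 95% confidence intervals), after UV on the left and in controls on the right, from 2007 alone (open), 2008 alone (red) and both years (black). The intervals of xpf-1, ercc-1 and xpg-1 lie left of 0 in each year, that of xpc-1 only in 2008 (at -2.68), and those of csa-1 span 0 throughout.

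By year, 6 of 8 genes fell in glp-1 controls with the 2008 arrays alone, where 22.4% of probe sets did, and 3 of 8 with those of 2007 alone, where 10.3% did. After UV the counts were 7 of 8 in 2008, where 23.8% fell, and 4 of 8 in 2007, where 11.4% did. In 2008 the differences among controls were, from largest to smallest fall, -2.68 for xpc-1, -2.62 for xpf-1, -1.84 for ercc-1, -1.07 for ddb-1, -0.88 for xpg-1, -0.81 for rad-23, -0.42 for csb-1 and -0.08 for csa-1. Only csa-1 and csb-1 did not pass, and csb-1 had an adjusted p of 0.055. In 2007 xpf-1, ercc-1 and xpg-1 passed among controls, and the same 3 with ddb-1 after UV.

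The 6 groups form 15 pairs. Within the 4 xpa-1 and N2 groups, and between the 2 glp-1 groups, 0 of 7 pairs passed for any gene, so neighbours in these stretches of the order could not be told apart. Few probe sets of any kind passed in such pairs: 0% for UV in glp-1 and in N2 and 0.031% in xpa-1. For xpa-1 minus N2 the shares were 0.00887% among controls and 0.0133% after UV. Of the 8 pairs of a glp-1 group with another group, 8 passed for ddb-1, ercc-1, xpf-1 and xpg-1, 7 for csb-1, 6 for rad-23 and 0 for xpc-1 and csa-1 with both years. All that passed were falls in glp-1. Of all probe sets, 18% fell in glp-1 minus N2 controls, 19.5% after UV and 17.6% in glp-1 minus xpa-1 controls. The shares for the remaining pairs were not counted, and the pairs share arrays.

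Cell type markers moved in the same comparison. In glp-1 controls, 14 of 14 germ line markers and 10 of 10 oocyte markers were lower than in N2, with median differences of -4.07 and -6.36. The summed germ line marker level was 892 to 1575 normalized intensity units in glp-1 controls, against 20918 to 24299 in N2 controls, and the summed oocyte level was 191 to 986 against 41875 to 68598. After UV the germ line sum was 1316 to 2713 in glp-1, against 20694 to 25267 in N2, and the oocyte sum 435 to 3544 against 45481 to 71418. None of these markers was at the lowest possible level on all 8 glp-1 arrays; oma-1, an oocyte maturation factor, was on 6 and htp-3, a meiotic axis protein, on 4. Of 9 sperm markers 0 passed among controls, and of them ssp-16 was at the lowest level on all 8 glp-1 arrays. Of the somatic lists, 4 of 6 intestine, 3 of 6 neuron, 1 of 6 muscle and 3 of 4 somatic gonad markers were higher in glp-1 controls, and 1 somatic gonad and 1 of 5 epidermis markers were lower. Of all probe sets 19.7% were higher and 18% lower in glp-1 controls, so the muscle count and the counts of lower somatic gonad and epidermis markers are near those shares. The part of these changes in the fall of the repair transcripts was not tested.

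Most other excision repair genes were lower in glp-1 as well. Of 25 other genes of the pathway 24 were measured (xpd-1 was not analysed here). Of these, 20 fell among controls and 20 after UV, where 18% and 19.5% of all probe sets did, and 0 rose. Their median differences were -2.11 and -1.97, against 0.07 and 0.15 for all genes. The lowest p-values were those of repair synthesis genes: pcn-1, the sliding clamp PCNA, at -5.23 (SE 0.31; limma adjusted p = 5.27e-11), rfc-3, a subunit of the clamp loader, at -4.99 (SE 0.32; adjusted p = 1.92e-10), and pole-1, the catalytic subunit of DNA polymerase epsilon, at -3.73 (SE 0.23; adjusted p = 1.18e-10). The same 3 had the lowest p-values after UV, at -5.29, -4.87 and -4.80. These proteins also replicate DNA in dividing cells. Of the TFIIH genes, gtf-2H4, gtf-2H5, cyh-1 and mnat-1 did not pass among controls, with differences of -0.61, -0.75, -0.18 and 0.09. After UVC 0 of the 24 passed in glp-1, xpa-1, N2 or the average, where at most 0.031% of probe sets did.

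**Figure D4:**
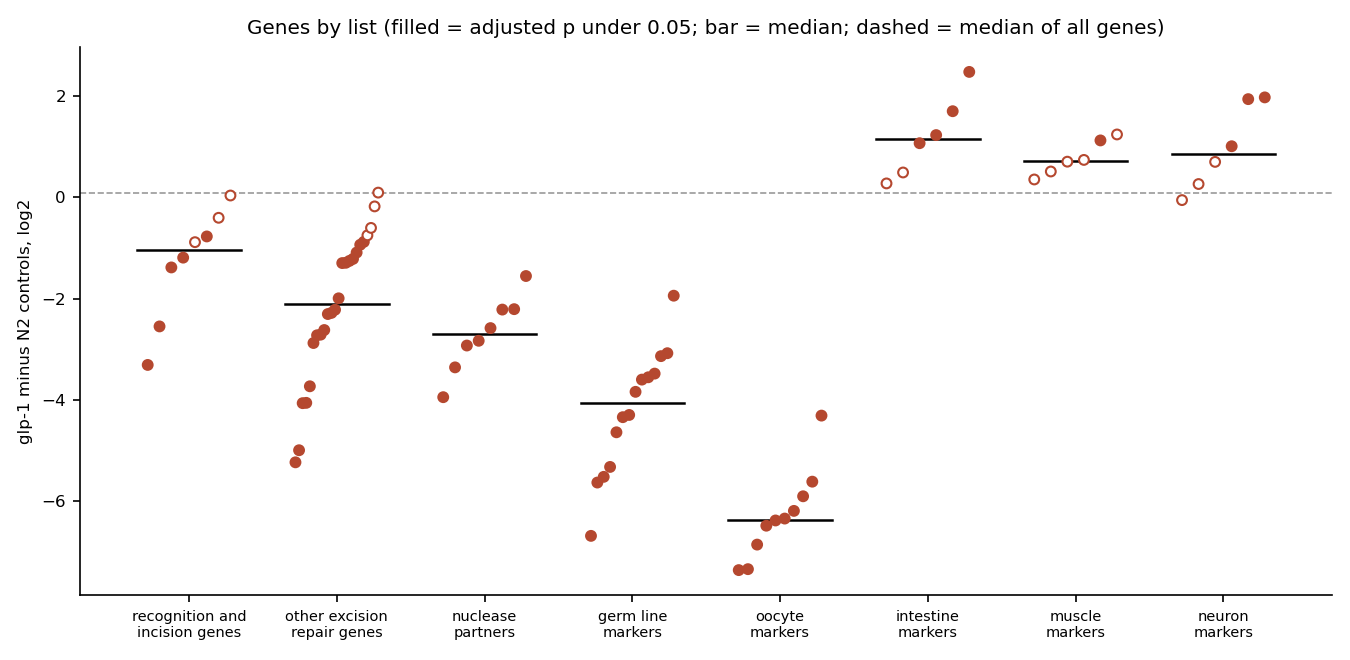
glp-1 minus N2 difference among controls (y axis, log2) of each gene, by list; filled points passed the test, bars are list medians and the dashed line is the median of all genes, 0.07. The median of the 8 recognition and incision genes (-1.04) lies between that of the other excision repair genes (-2.11) and 0. Of the 8, xpf-1 (-3.31) and ercc-1 (-2.55) lie below -2.11 and csa-1 (0.03) lies above 0. The medians of germ line (-4.07) and oocyte markers (-6.36) are lowest. The list labelled nuclease partners holds genes of crosslink repair and meiotic recombination.

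Outside excision repair, 8 genes of crosslink repair and meiotic recombination were counted as a list. All 8 fell in glp-1 controls, where 18% of all probe sets did, with a median difference of -2.71. slx-1, a structure-specific nuclease, had a difference of -3.36 (SE 0.19; limma adjusted p = 3.36e-11), fcd-2, the crosslink repair protein FANCD2, one of -2.93 (SE 0.17; adjusted p = 5.84e-11) and him-18, the SLX4 scaffold that binds XPF-1, one of -2.21 (SE 0.19; adjusted p = 1.23e-08). After UV all 8 fell again, where 19.5% of all probe sets did. The lowest p-values were then those of slx-1 at -3.51, fcd-2 at -2.79 and him-6, a RecQ-type helicase, at -3.69. Among controls these 8 genes ran from -3.95 (exo-1) to -1.56 (eme-1). xpf-1 and ercc-1 lay within that range, and xpg-1 at -1.39 lay above it.

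Among 8559 genes above the median level, those most like each nuclease gene over the 24 arrays, after the mean of each year was subtracted, had Pearson correlations of 0.95 to 0.98. For ercc-1 they were K08F4.3 at 0.98, trr-1 at 0.98 and Y32B12B.4 at 0.98, for xpf-1 ddx-10 at 0.97, gex-5 at 0.97 and F25H8.2 at 0.97, and for xpg-1 bath-19, taf-9 and trr-1, each at 0.95. The arrays share the glp-1 contrast, and without the 8 glp-1 arrays (16 left) these correlations were -0.03 to 0.61. For ddb-1 the most alike were gpch-1 at 0.94, pqe-1 at 0.93 and ddx-23 at 0.93, which without glp-1 arrays were 0.79, 0.82 and 0.86. For csa-1 they were mrpl-23, Y57A10A.29 and icln-1, at 0.69 to 0.70, and without glp-1 arrays at 0.72 to 0.83. The most alike of csb-1 were cpn-1, ceh-58 and eif-3.H, at 0.88 to 0.91 and without glp-1 arrays at 0.69 to 0.78. Those of rad-23 were pus-1, Y34D9A.3 and dhs-11, at 0.90 to 0.91 and without glp-1 arrays at 0.50 to 0.70. Those of xpc-1 were ZC449.1, cin-4 and ints-4, at 0.81 to 0.82 and without glp-1 arrays at 0.26 to 0.59. All are the best of 8559 genes on arrays that include these 16, so high values are expected from the choice and the correlations are descriptions only.

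Between the years the normalized levels of the 8 genes moved apart. xpc-1 (2.50), rad-23 (1.54), ddb-1 (1.08) and xpf-1 (0.99) were higher in 2008 than in 2007, where 22.9% of probe sets were. csb-1 (-0.90) and xpg-1 (-0.46) were lower in 2008, where 27.2% of probe sets were. csa-1 (0.23) and ercc-1 (-0.26) did not pass (limma adjusted p = 0.49 and 0.31). For csb-1, ercc-1 and xpg-1 the direction turned with values as deposited, with median centring and with quantile normalization within each year. It did not turn with 75th percentile scaling, where ercc-1 was at -0.69 and passed (limma adjusted p = 0.0084).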

How the data were processed

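The authors deposited 1 processed intensity per probe set and array, on a linear scale with values below 0. Their probe summary, background correction and scaling are not given in the sources available. Values were quantile-normalized over 24 arrays, values under 0 set to 0 (15.5% were at or below 0), 32 added and log2 taken. limma 3.58.1 (R 4.3.3) fitted a mean per group and a year term on all 22548 probe sets (17 residual degrees of freedom), with Benjamini-Hochberg adjustment over all of them. The number of arrays limits the precision. GEO's platform annotation named 1 gene for 20766 probe sets, several for 887 and none for 895, and no symbol was changed by the RefSeq table. Groups came from the sample labels.

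The 8 genes and all lists were chosen with earlier results of these data known. Named genes outside the 8 were the 3 with the lowest p per list among those past the threshold, and the 3 best correlated with each gene. Those lists held other excision repair genes, genes of crosslink repair and meiotic recombination, and markers of germ line, oocytes, sperm, intestine, muscle, neurons, epidermis and somatic gonad. Other list members named in the text were chosen after their values were seen. Alternatives changed scaling, offset, filter, year term, variance model, threshold and the arrays used. The procedure was tested on simulated data.

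Same-numbered arrays of a year were compared for pairing. Their deviations correlated in both years by over 0.1 for UV in glp-1 (0.11 and 0.39) and for xpa-1 minus N2 after UV (0.18 and 0.30), and not in the other comparisons. In 2008, but not in 2007, they did so for UV in N2 (0.24) and in xpa-1 (0.30). The same held for glp-1 minus N2 controls (0.26) and xpa-1 minus N2 controls (0.21). The fits of the 2008 arrays alone did not pair arrays. Members' sequences and genome positions were not used here.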

Additional observations from a re-analysis of the deposited data

Results flagged for a closer look

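In 3 of the 48 combinations of gene and group, the lowest of the 4 arrays lay apart from the other 3 by more than Dixon's 95% limit. Chance alone exceeds that limit in about 1 in 20 groups if the 4 values share 1 mean and spread. Here the year was not removed, and the median standard deviation within a group was 0.42 in 2007 and 0.16 in 2008. The rate of 1 in 20 therefore need not hold. All 3 were first replicates of 2007. ddb-1 read 8.26 on the N2 array after UV, against 9.11 on the nearest array of its group. csa-1 read 5.46 on the xpa-1 array after UV, against 6.81 on the nearest. In N2 controls csa-1 read 5.53, against 6.70 on the nearest.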

How the results depend on the processing

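Of 2776 values of the 8 genes under the alternatives, 2468 kept their direction and side of the threshold, 219 changed sign without a call on either side, 49 lost the call, 28 gained it and 12 turned. None of the 8 genes passed in any UV or xpa-1 minus N2 comparison under any alternative run, also without single arrays. The replicate block gave 0 of the 8 in UV in glp-1 and in xpa-1 minus N2 after UV; for the other pairs it gave 5 (glp-1 minus N2 controls), 6 (after UV) and 5 (glp-1 minus xpa-1 controls, csb-1 -0.54, adjusted p = 0.0518). In glp-1 minus N2 controls 3 of the 8 passed without a year term and 3 with the 2007 arrays alone, against 5, and leaving out 1 array gave 4 to 6. After UV, leaving out 1 array gave 6 throughout, but 4 passed without a year term and with 2007 alone (rad-23 and csb-1 lost), 5 with 75th percentile scaling (rad-23 -0.50, adjusted p = 0.110), 5 with the compared groups alone (csb-1, adjusted p = 0.0631), 7 with 2008 alone, median centring, quantile normalization within years and array weights (xpc-1 gained) and 8 as deposited. The falls over all probe sets moved too. Among glp-1 controls they ran from 2322 with 2007 alone to 5304 with array weights (4061 in the fit used). After UV they ran from 2575 with 2007 alone to 6359 as deposited (4408 in the fit used). For glp-1 minus xpa-1 controls 3 passed without a year term, 3 with 2007 alone and 3 with 75th percentile scaling, against 6, and 4 to 5 without 1 array. In the strain-by-year test 2 passed with values as deposited, 3 with median centring, 2 with quantile normalization within years, 1 with an offset of 1 and 1 with 100, against 0, and 0 to 1 without 1 array. There xpc-1 was -3.69, -2.98 and -3.09 under those scalings and -2.61 with 100, and xpf-1 was called both ways, at -2.20, -1.49 and -1.59 under those scalings and at 5.93 (adjusted p = 3.15e-04) with an offset of 1. In 2008 minus 2007, csb-1, ercc-1 and xpg-1 turned to 2.80, 2.94 and 3.11 as deposited, to 0.84, 0.98 and 1.15 with median centring and to 2.82, 3.07 and 3.20 within years. The cause of these changes was not tested.

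With array weights 7 of the 8 fell in glp-1 controls (xpc-1 -2.24, csb-1 -0.43). ddb-1 lost its call there with 75th percentile scaling (-0.98, adjusted p = 0.0736) and with an offset of 1 (-1.42, adjusted p = 0.0741). csb-1 passed there as deposited (-1.22) and with median centring (-0.81). Of all called probe sets in glp-1 minus N2, 52.3% were higher among controls and 50.9% after UV, against 27.7% and 18.9% with deposited values and 58.1% and 61.2% with 75th percentile scaling. The median of all genes among controls was 0.07, -0.08 as deposited, 0.32 with median centring and 0.17 with 75th percentile scaling.

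Calls over all probe sets ranged from 0 to 25 for UV in N2 (0 in the fit used), 0 to 262 in xpa-1 (7), 0 to 159 in glp-1 (0) and 0 to 502 in the average (7). For xpa-1 minus N2 they were 0 to 54 among controls (2) and 0 to 33 after UV (3). With 2007 alone, 4296 passed in glp-1 minus N2 controls (8511), 4525 after UV (8986) and 4280 in glp-1 minus xpa-1 controls (8537). For 2008 minus 2007 up to 19861 passed (11314), and 48 to 5968 in the strain-by-year test (299). The mean over a gene's probe sets was not run, since each gene has 1. Dim signal limits 2007, where xpc-1 and csa-1 were near 0.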
